A study of Mus musculus with 10 samples.

Results

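The genes described here are 6 receptors of the tumour necrosis factor (TNF) receptor family, Tnfrsf18, Tnfrsf4, Tnfrsf9, Tnfrsf1b, Tnfrsf8 and Cd27, together with Icos, a receptor of the CD28 family. They were chosen by symbol, and every probe set of the array annotated to one such symbol alone was taken. This gave 7 of 18193 genes and 12 of 45037 probe sets, and 11 of the 12 probe sets passed the filter on low values described below.

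The receptors of the TNF family are bound by ligands that act as trimers, and their cytoplasmic tails recruit TRAF adaptor proteins that switch on NF-kB signalling. Most of them are low or absent on resting T cells, appear after stimulation through the T cell receptor and then support survival and division. ICOS is built differently: it binds a single B7-like ligand and recruits PI3-kinase to its tail. GITR (Tnfrsf18), OX40 (Tnfrsf4), TNFR2 (Tnfrsf1b) and ICOS are well known surface proteins of regulatory T cells (Treg), the CD4+ cells defined by the transcription factor Foxp3.

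Messenger RNA was measured on 10 Affymetrix Mouse Genome 430 2.0 arrays from CD4+ T cells of mouse spleen, in 5 groups of 2 arrays. All cells were stimulated with antibodies to CD3 and CD28, infected with the retrovirus pGCSamIN, which carries an NGFR marker, and sorted as NGFR+. Starting cells were sorted as GFP+ or GFP- from DEREG mice, in which a transgene places GFP and the diphtheria toxin receptor under the Foxp3 promoter, so GFP reports use of that promoter. The group called scurfy Foxp3 started from GFP+ cells of DEREG/Scurfy mice, which carry a mutated Foxp3 gene, and is labelled as transduced with Foxp3. The scurfy mock group had the same start and the empty vector. Treg mock cells started as GFP+ cells of DEREG mice and received the empty vector. Tconv Foxp3 cells started as GFP- conventional cells (Tconv) of DEREG mice and are labelled as transduced with Foxp3, and Tconv mock cells had that start and the empty vector. The scurfy source was read from the abbreviation D_S and the protocol, whereas all 10 arrays carry the same strain entry, DEREG_Balb/c. Scurfy cells sorted as GFP- were not measured. Between scurfy and Tconv groups the starting cell and the Foxp3 mutation therefore cannot be told apart. No group was left unstimulated or uninfected, the animals' age is not given in the sources used here, and nothing says that the 2 arrays of a group came from separate animals or cultures. The p-values therefore measure the spread between these arrays, which may be technical.

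The labels were checked against marker genes. Summed intensities of 7 T cell markers lay between 18500 and 25300 on all arrays. Ikzf2, which encodes the Treg factor Helios, was at 2261 to 3341 on the 6 GFP+ arrays and at 9.03 to 24.4 on the 4 GFP- arrays. Ikzf4, also listed as a Treg marker, was at 2740 to 4030 and at 480 to 721. The listed Treg marker Nrp1 overlapped between the starts, at 82.9 to 484 on GFP+ and 37.6 to 132 on GFP- arrays. The Foxp3 probe set read 2130 and 3128 in Treg mock cells. It read 948 and 691 in scurfy Foxp3 cells, against 1188 and 1114 in scurfy mock cells, and 18.0 and 18.9 in Tconv Foxp3 cells, against 53.9 and 35.9 in Tconv mock cells. It was thus not higher on either pair of arrays labelled Foxp3, and the sources used here do not say which part of the transcript it covers, so the label could not be checked with it. "Foxp3" in a group name below stands for the label. Of 7 listed B cell markers, 6 had a single-symbol probe set, and they summed to 774 and 1740 in scurfy Foxp3 cells, 67.7 and 349 in scurfy mock, 52.0 and 536 in Treg mock, 293 and 480 in Tconv Foxp3, and 47.6 and 41.7 in Tconv mock cells. Array medians ran from 18.8 to 36.3, with a correlation of 0.92 to 0.975 between the arrays of a group.

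Averaged over the 3 GFP+ groups, 2 of them scurfy, RNA was higher than over the 2 GFP- groups for 4 of the 7 receptors. These were Icos, Tnfrsf1b, Tnfrsf8 and Tnfrsf9, by 0.87 to 1.78 on the log2 scale. The Foxp3 label was on scurfy Foxp3 among the 3 GFP+ groups and on Tconv Foxp3 among the 2 GFP- groups, so start and label were not balanced. Tconv Foxp3 had the lowest mean for all 4. For Tnfrsf8 the log2 means were 9.48 in scurfy Foxp3, 9.84 in scurfy mock and 8.27 in Treg mock cells. They were 8.695 in Tconv mock and 6.14 in Tconv Foxp3 cells. With the empty vector, 0 of 7 members were called for either GFP+ start against Tconv mock cells. Tnfrsf8 was at -0.42 between Treg mock and Tconv mock cells. For Tnfrsf18, Tnfrsf4 and Cd27 the averaged difference did not pass the test, and whether these 3 differ from the other 4 was not tested. In limma's fit over 11326 genes, 4 of the 7 members were called higher (adjusted p under 0.05) and none lower, where 3.47% of all genes tested were called higher and 4.68% in either direction. The median difference was 0.87 over the members, with 6 of 7 above 0, and 0.08 over all genes, with 6541 of 11326 above 0. Differences are on the scale of log2(intensity + 16), which understates the change of dim probe sets. In bulk RNA, fewer cells of a type and less RNA per cell cannot be told apart.

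**Figure D1:**
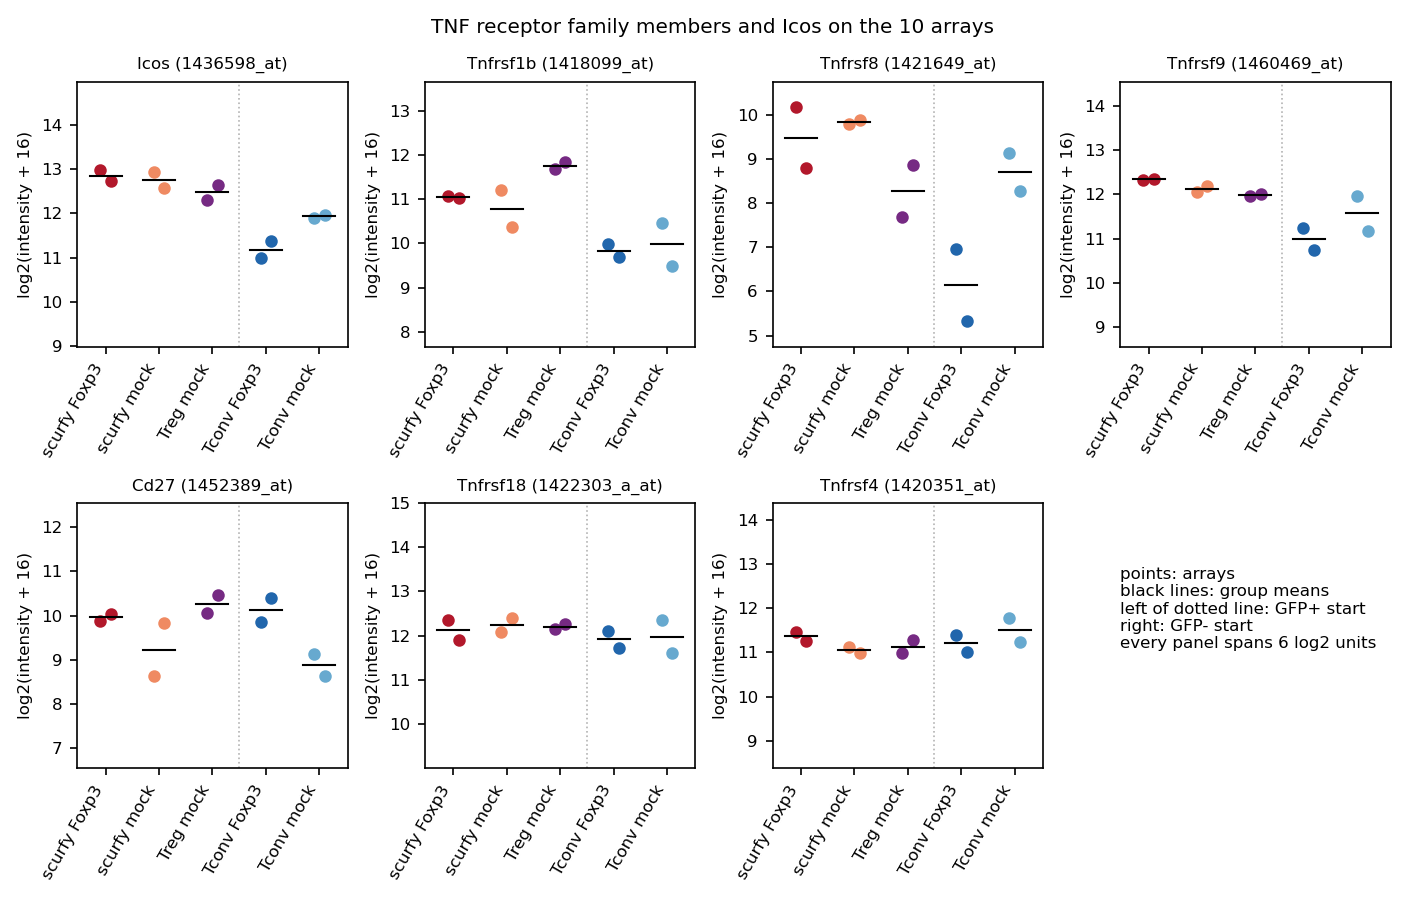
Log2(intensity + 16) of each gene's brightest probe set on the 10 arrays (points, 2 per group; horizontal lines are group means), with the 3 GFP+ starts left of the 2 GFP- starts. Icos separates the 6 GFP+ arrays from the 4 GFP- arrays, Tnfrsf8 is lowest in Tconv Foxp3 cells, and the groups of Tnfrsf18 and Tnfrsf4 largely overlap.

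Icos, which takes part in T cell help and in Treg survival, was the only member whose GFP+ and GFP- arrays did not overlap. Its brightest probe set (1436598_at) read 8064 and 6737 in scurfy Foxp3 cells, 7824 and 6105 in scurfy mock, 5046 and 6355 in Treg mock, 2011 and 2626 in Tconv Foxp3, and 3797 and 3989 in Tconv mock cells. Every GFP+ array lay above every GFP- array. Of all genes tested, 6.19% had no overlap between these arrays in either direction. Between single groups of 2 arrays that share was not counted, and overlap is given there only as a description. The 3 GFP+ groups exceeded the GFP- groups by 1.14 ± 0.18 (SE) on the log2 scale, or 2.20-fold (limma adjusted p = 0.0119). In order of level, scurfy Foxp3 (mean 7401 ± 938, SD, n = 2) and scurfy mock (6964 ± 1215) overlapped, as did scurfy mock and Treg mock (5701 ± 926). Treg mock lay above Tconv mock (3893 ± 136) without overlap, and Tconv mock above Tconv Foxp3 (2318 ± 434.5). The call for GFP+ against GFP- starts was lost without Tconv Foxp3 replicate 1 (1.04, adjusted p = 0.0715), Tconv mock replicate 1 (1.12, adjusted p = 0.0551) or Tconv mock replicate 2 (1.16, adjusted p = 0.0537).

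The other Icos probe sets followed the same order with wider spacing. Probe set 1421931_at read 4543 and 3552 in scurfy Foxp3 cells, 4336 and 3153 in scurfy mock, 2247 and 3160 in Treg mock, 541 and 652 in Tconv Foxp3, and 1175 and 1425 in Tconv mock cells. Fitted among all single-symbol probe sets, its difference between GFP+ and GFP- starts was 1.94 ± 0.20 (SE; limma adjusted p = 0.00132), against 1.35 ± 0.20 for 1421930_at (adjusted p = 0.00775). The 3 probe sets correlated at 0.991 to 0.997 over the 10 arrays, which share labelling and background. They thus ranked the arrays alike while giving fold differences between 2.20 and 3.83.

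Tnfrsf1b encodes TNFR2, the receptor for soluble and membrane TNF that is found on lymphocytes. Its brightest probe set read 2130 and 2057 in scurfy Foxp3 cells, 2368 and 1301 in scurfy mock, 3275 and 3661 in Treg mock, 1006 and 807 in Tconv Foxp3, and 1404 and 701 in Tconv mock cells. Treg mock cells were highest on both arrays, above every other array of the series. The GFP+ groups exceeded the GFP- groups by 1.29 ± 0.25 (SE), or 2.45-fold (limma adjusted p = 0.0257), although scurfy mock replicate 2 lay below Tconv mock replicate 1. In order of level, Treg mock (3468 ± 273, SD, n = 2) did not overlap with scurfy Foxp3 (2094 ± 51.7), while scurfy Foxp3 and scurfy mock (1834 ± 755), scurfy mock and Tconv mock (1052 ± 497), and Tconv mock and Tconv Foxp3 (906 ± 141) each overlapped. The dimmer probe set, 1448951_at, at 15.9 to 98.2, gave 0.89 ± 0.26 (adjusted p = 0.101). The call was kept in 4 of 10 fits that left out an array and was lost without either scurfy Foxp3 array, either Tconv Foxp3 array, Treg mock replicate 2 or Tconv mock replicate 2, with adjusted p up to 0.124 (1.21 without Tconv Foxp3 replicate 2).

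Tnfrsf8 and Tnfrsf9 are described together with their promoters. Tnfrsf8 encodes CD30, a receptor of activated lymphocytes, and Tnfrsf9 encodes CD137, an activation-induced costimulatory receptor. In RefSeq on GRCm38.p6, 6 of the 7 genes had at least 1 window of 250 bases before to 50 bases after an annotated start, 7 windows in all. Each was searched on both strands for the NF-kB consensus, since these receptors signal through NF-kB, for the AP-1 motif TGANTCA of activated T cells and for the forkhead motif TGTTTAC, Foxp3 being a forkhead protein. Of 32851 windows in the table, 8.46% held the NF-kB consensus, 7.81% the AP-1 motif, 3.65% the forkhead motif and 0.539% both of the first pair. Only the single Tnfrsf8 window (chr4:145315115-145315414, minus strand) and the second Tnfrsf9 window (chr4:150927749-150928048, plus strand) held matches, and each held NF-kB and AP-1 matches together. They are printed 5′ to 3′ to show how close the matches lie, with the matches in capitals.
Tnfrsf8: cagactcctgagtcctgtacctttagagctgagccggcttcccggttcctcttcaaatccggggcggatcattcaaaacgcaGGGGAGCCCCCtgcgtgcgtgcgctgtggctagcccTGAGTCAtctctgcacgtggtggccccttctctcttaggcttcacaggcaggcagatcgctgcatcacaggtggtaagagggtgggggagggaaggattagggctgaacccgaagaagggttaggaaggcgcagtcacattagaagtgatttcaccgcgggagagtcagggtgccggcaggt
Tnfrsf9: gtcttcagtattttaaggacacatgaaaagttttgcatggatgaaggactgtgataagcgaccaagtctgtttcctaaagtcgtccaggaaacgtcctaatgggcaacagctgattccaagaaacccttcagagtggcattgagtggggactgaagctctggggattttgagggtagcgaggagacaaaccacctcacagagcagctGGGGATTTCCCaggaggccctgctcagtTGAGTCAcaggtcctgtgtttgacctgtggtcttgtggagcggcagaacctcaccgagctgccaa
In Tnfrsf8 the capitals mark overlapping NF-kB matches that begin at -168 and -167 from the start site and an AP-1 match that begins at -132. In Tnfrsf9 they mark overlapping NF-kB matches from -43 and -42 and an AP-1 match from -15. No window of these genes held the forkhead motif. A match describes the letters only, and binding was not measured here.

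Tnfrsf8 had the widest range of the 7 receptors. Its only probe set read 1139 and 426 in scurfy Foxp3 cells, 874 and 922 in scurfy mock, 191 and 447 in Treg mock, 109 and 24.2 in Tconv Foxp3, and 544 and 291 in Tconv mock cells. Tconv Foxp3 cells were lowest on both arrays, and the Treg mock arrays lay on both sides of the lower Tconv mock array. Between GFP+ and GFP- starts the difference was 1.78 ± 0.42 (SE), or 3.43-fold (limma adjusted p = 0.0476). In order of level, scurfy mock (898 ± 34.1, SD, n = 2) overlapped with scurfy Foxp3 (782 ± 504) and Tconv mock (417 ± 179) with Treg mock (319 ± 181). Scurfy Foxp3 and Tconv mock overlapped as well, and only Tconv Foxp3 (66.4 ± 59.7) stood below its neighbour without overlap. The call was kept in 2 of 10 fits without an array, those leaving out scurfy Foxp3 replicate 2 or Treg mock replicate 1; the other 8 gave adjusted p values up to 0.18 (1.37 without Tconv Foxp3 replicate 2).

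Tnfrsf9 had a smaller fitted difference, with little spread within the GFP+ groups on its brightest probe set. The brightest of its 3 probe sets (1460469_at) read 5156 and 5243 in scurfy Foxp3 cells, 4263 and 4655 in scurfy mock, 3962 and 4139 in Treg mock, 2386 and 1707 in Tconv Foxp3, and 3986 and 2305 in Tconv mock cells. On this probe set the ranges of the 3 GFP+ groups did not overlap with each other, though limma's unadjusted p between these groups was 0.286 to 0.676. Tconv mock replicate 1 reached just above the lowest GFP+ array. In order of level, Treg mock (4051 ± 125, SD, n = 2) and Tconv mock (3145 ± 1188) overlapped, as did Tconv mock and Tconv Foxp3 (2047 ± 480). The difference between GFP+ and GFP- starts was 0.87 ± 0.21 (SE), or 1.83-fold (limma adjusted p = 0.0469). That call was lost when any of the 10 arrays was left out, with adjusted p of 0.0531 to 0.2 and differences of 0.68 to 1.07. Probe set 1428034_a_at correlated with 1460469_at at 0.965 over the 10 arrays and gave 0.96 ± 0.24 (adjusted p = 0.0638). On 1428034_a_at the GFP+ groups did overlap. They ran from 3931 to 4901 in scurfy Foxp3, 3707 to 4799 in scurfy mock and 3797 to 4014 in Treg mock cells. The third probe set, 1421481_at, read 6.68 to 12.1 and did not pass the filter on low values, for which 2 or more arrays had to exceed their median.

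Tnfrsf18 and Tnfrsf4 lay far above the array medians in all groups. Tnfrsf18, the gene of GITR, read 5195 and 3814 in scurfy Foxp3 cells, 4347 and 5361 in scurfy mock, 4504 and 4881 in Treg mock, 4403 and 3352 in Tconv Foxp3, and 5207 and 3106 in Tconv mock cells. In order of level, from scurfy mock over Treg mock, scurfy Foxp3 and Tconv mock to Tconv Foxp3, each group overlapped with the next, and the difference between GFP+ and GFP- starts was 0.24 (95% interval -0.24 to 0.72, limma adjusted p = 0.543). Tnfrsf4, the gene of OX40, read 2820 and 2437 in scurfy Foxp3 cells, 2217 and 2022 in scurfy mock, 2001 and 2452 in Treg mock, 2688 and 2037 in Tconv Foxp3, and 3498 and 2386 in Tconv mock cells. Its highest value was in a Tconv mock array, and each group overlapped with the next in order of level, from Tconv mock over scurfy Foxp3, Tconv Foxp3 and Treg mock to scurfy mock. The difference between starts was -0.17 (95% interval -0.60 to 0.26, adjusted p = 0.64). In RefSeq these genes are neighbours on chromosome 4 with 0 protein-coding genes between them, as are Tnfrsf1b and Tnfrsf8 on the same chromosome.

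Cd27, a receptor of naive and memory T cells whose ligand is CD70, had yet another order. Its probe set read 931 and 1031 in scurfy Foxp3 cells, 378 and 893 in scurfy mock, 1055 and 1401 in Treg mock, 911 and 1333 in Tconv Foxp3, and 545 and 380 in Tconv mock cells. The highest arrays were Treg mock replicate 2 and Tconv Foxp3 replicate 2, and scurfy mock replicate 1 and both Tconv mock arrays were lowest. In order of level, Treg mock (1228 ± 245, SD, n = 2) overlapped with Tconv Foxp3 (1122 ± 299), and Tconv Foxp3 with scurfy Foxp3 (981 ± 70.8). Scurfy Foxp3 lay below Treg mock and above scurfy mock (636 ± 364) without overlap. Scurfy mock overlapped with Tconv mock (462 ± 117). Between GFP+ and GFP- starts the difference was 0.31 (95% interval -0.29 to 0.92, limma adjusted p = 0.533). B cells can carry CD27 as well, and the part of the B cell markers given above was not tested.

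The starting cell was next compared under the same vector label. The genotype differed too, DEREG/Scurfy against DEREG, so start and Foxp3 mutation cannot be told apart here. Between scurfy Foxp3 and Tconv Foxp3 cells, Icos and Tnfrsf8 were called higher, 2 of the 7 members, where 1.63% of genes tested were called higher and 2.26% in either direction. The median difference was 1.20 over the members, with 6 of 7 above 0, and -0.07 over all genes, with 5072 of 11326 above 0. Icos was higher by 1.67 ± 0.28 (SE), or 3.19-fold (limma adjusted p = 0.0215), and 3.34 ± 0.65 separated the groups for Tnfrsf8, or 10.1-fold (adjusted p = 0.0394). The size for Tnfrsf8 rests on the pseudocount, since Tconv Foxp3 replicate 2 lay near its array median (24.2 against 24.0): it was 2.64 at pseudocount 64 and 3.73 at pseudocount 1. Its call ended at pseudocount 1 (adjusted p = 0.0827), without a filter (0.0933) and with array weights (0.0899). Tnfrsf9 was at 1.36 ± 0.32 (adjusted p = 0.0693) and Tnfrsf1b at 1.20 ± 0.39 (adjusted p = 0.17), neither past the threshold. Tnfrsf9 did pass after quantile normalization (adjusted p = 0.0448), at pseudocount 64 (0.0421) and with limma's trend and robust options (0.0109). Intervals for Tnfrsf18 (-0.53 to 0.95), Tnfrsf4 (-0.50 to 0.83) and Cd27 (-1.11 to 0.77) spanned 0. This comparison shares its arrays with the one over all starts. Either call was lost when any of the 4 compared arrays was left out, with the largest adjusted p without Tconv Foxp3 replicate 1 for Icos (1.48, 0.167) and without Tconv Foxp3 replicate 2 for Tnfrsf8 (2.52, 0.302). The B cell markers were higher in these scurfy Foxp3 arrays (774 and 1740, against 293 and 480), and their part in the differences, that of Icos included, was not tested.

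Among cells with the empty vector, 0 of 7 members passed the test in either comparison. Between Treg mock and Tconv mock cells the largest differences were 1.79 ± 0.39 (SE) for Tnfrsf1b (limma adjusted p = 0.0733) and 1.39 ± 0.42 for Cd27 (adjusted p = 0.155), the 2 members with an unadjusted p under 0.05. Icos was at 0.54 (95% interval -0.09 to 1.17) and Tnfrsf8 at -0.42 (-1.89 to 1.05). The dimmer Icos probe set 1421931_at was at 1.03 (0.33 to 1.74; unadjusted p = 0.00841, adjusted p = 0.153). In this comparison 1.12% of genes were called, and 1749 of 11326 had an unadjusted p under 0.05. The medians were 0.42 over the members and 0.19 over all genes (-0.05 after quantile normalization). Tnfrsf1b passed when either scurfy mock array, which is not part of the comparison, was left out (adjusted p = 0.0452), the difference being 1.79 in both fits. Between scurfy mock and Tconv mock cells Icos was at 0.83 ± 0.28 (unadjusted p = 0.0158, adjusted p = 0.263), the only member with an unadjusted p under 0.05. Tnfrsf8 was at 1.14 (-0.33 to 2.61), Tnfrsf1b at 0.81 (-0.07 to 1.70) and Tnfrsf9 at 0.55 (-0.16 to 1.27). Here 0.574% of genes were called, and 1570 of 11326 had an unadjusted p under 0.05. The medians were 0.55 over the members and 0.23 over all genes (-0.02 after quantile normalization). These comparisons share the Tconv mock arrays.

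**Figure D2:**
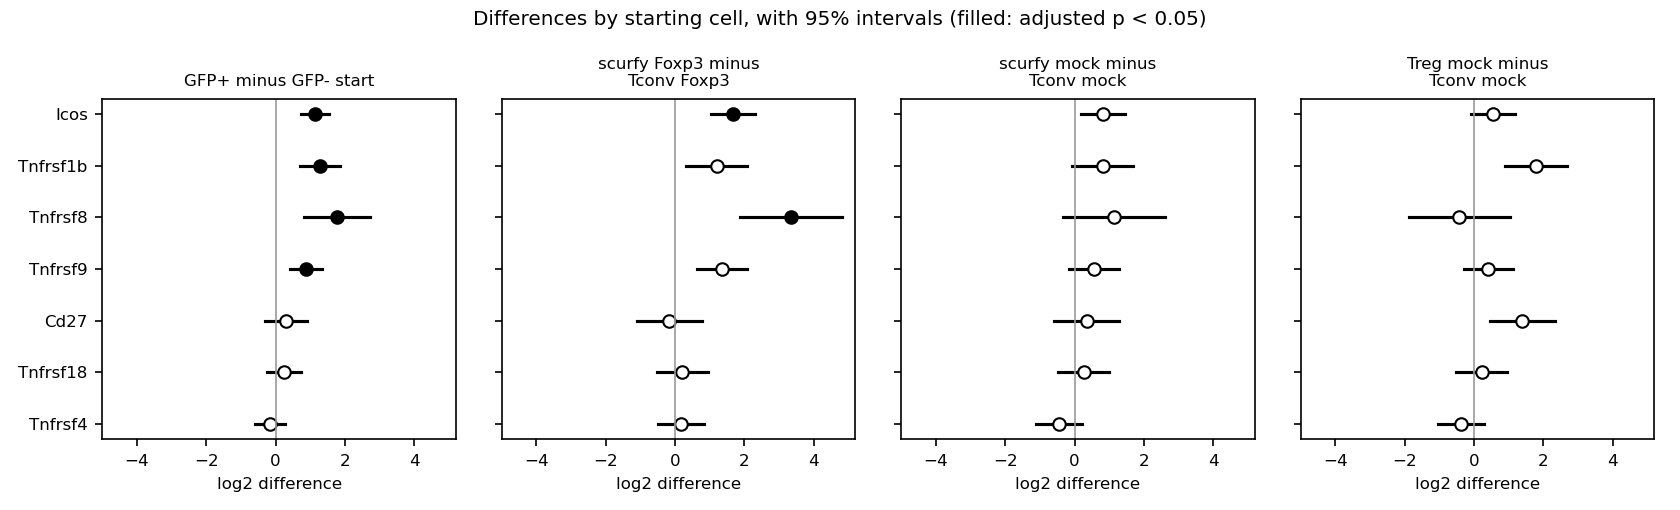
Log2 difference of each gene for GFP+ minus GFP- starts and for 3 pairs of groups, with 95% intervals from limma (filled points: adjusted p under 0.05). Icos, Tnfrsf1b, Tnfrsf8 and Tnfrsf9 are filled in the first panel and Icos and Tnfrsf8 in the second, while no point is filled for scurfy mock or Treg mock against Tconv mock.

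The Foxp3-labelled arrays were then set against mock arrays of the same start. Between Tconv Foxp3 and Tconv mock cells 0 of 7 members passed limma's test, where 0.0883% of genes were called. An unadjusted p under 0.05 was found for 1577 of 11326 genes and for 3 of the 7 members. Those 3 were Tnfrsf8 at -2.55 ± 0.65 (SE; adjusted p = 0.184), Cd27 at 1.25 ± 0.42 (adjusted p = 0.273) and Icos at -0.76 ± 0.28 (adjusted p = 0.303). A positive difference was found for 1 of 7 members, Cd27, and for 8203 of 11326 genes. The median was -0.30 over the members and 0.26 over all genes, and after quantile normalization the median of all genes was 0.01. Tnfrsf18 was at -0.07 (95% interval -0.81 to 0.68) and Tnfrsf4 at -0.30 (-0.97 to 0.36).

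Between scurfy Foxp3 and scurfy mock cells 0 of 7 members passed and 0 had an unadjusted p under 0.05, where 0.0353% of genes were called by limma. Icos was at 0.09 (95% interval -0.54 to 0.72), Tnfrsf1b at 0.25 (-0.63 to 1.14), Tnfrsf9 at 0.22 (-0.49 to 0.94) and Tnfrsf8 at -0.36 (-1.82 to 1.11). Cd27 had the largest difference, 0.73 (-0.21 to 1.67). The effect in scurfy cells minus the effect in Tconv cells was tested as an interaction. It passed for 0 of 7 members and for 0% of genes, 915 of which had an unadjusted p under 0.05. By its brightest probe set, Tnfrsf8 was the 1 member with an unadjusted p under 0.05, at 2.20 ± 0.92 (unadjusted p = 0.0403, adjusted p = 0.616), and Icos was at 0.85 (-0.04 to 1.74). The dimmer Icos probe sets were under that value too, 1421930_at at 1.20 ± 0.43 (SE; unadjusted p = 0.019) and 1421931_at at 1.22 ± 0.44 (unadjusted p = 0.0209), both with an adjusted p of 0.613. The median of all genes was -0.28 here and 0.01 after quantile normalization.

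**Figure D3:**
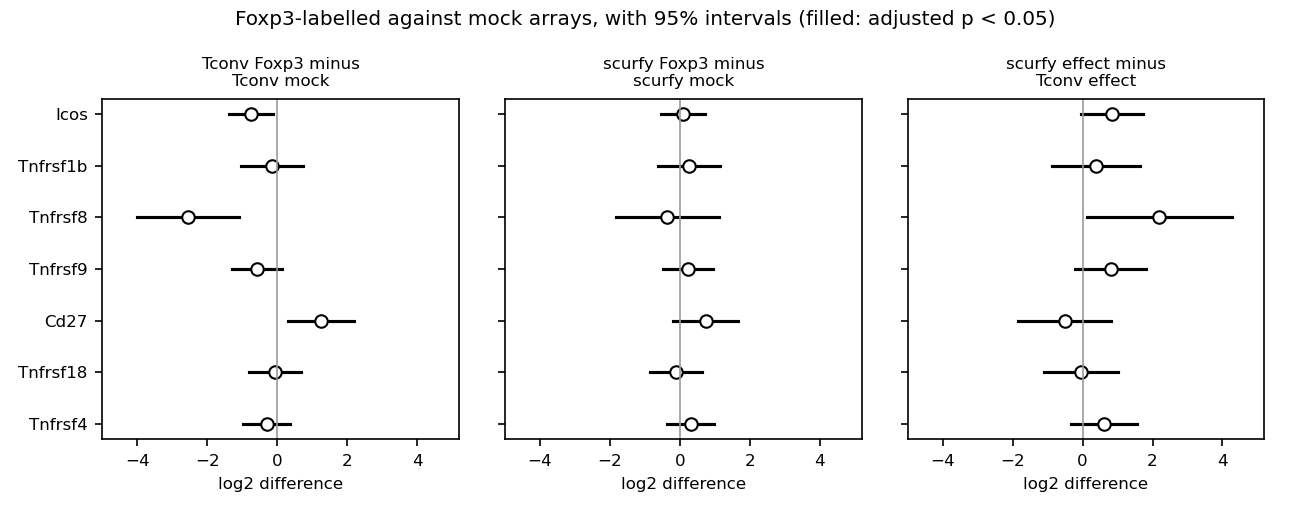
Log2 difference of each gene between Foxp3-labelled and mock arrays in Tconv and in scurfy cells, and the difference of these effects, with 95% intervals from limma (a filled point would mark an adjusted p under 0.05; there is none). Tnfrsf8 and Icos lie below 0 and Cd27 above 0 in Tconv cells, and every interval includes 0 in scurfy cells.

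Further comparisons set each group against Treg mock cells. Scurfy Foxp3 cells differed from them in 0 of 7 members, where 0.168% of genes were called by limma and 0 members had an unadjusted p under 0.05, with Tnfrsf8 at 1.21 (95% interval -0.26 to 2.68) and Tnfrsf1b at -0.72 (-1.61 to 0.16). Scurfy mock cells also gave 0 of 7, where 0.256% of genes were called. Here Tnfrsf8 (1.56), Cd27 (-1.04) and Tnfrsf1b (-0.97) had an unadjusted p under 0.05, with adjusted p of 0.557 to 0.586. Of all 11326 genes, 899 had an unadjusted p under 0.05. Tconv Foxp3 cells gave 0 of 7 where 0.68% of genes were called. An unadjusted p under 0.05 was found for 1558 of 11326 genes and for 4 members. These were Tnfrsf8 at -2.13 ± 0.65 (SE; adjusted p = 0.206), Tnfrsf1b at -1.92 ± 0.39 (adjusted p = 0.0765), Icos at -1.30 ± 0.28 (adjusted p = 0.0914) and Tnfrsf9 at -0.999 ± 0.32 (adjusted p = 0.217). Probe set 1421931_at of Icos did pass among all probe sets, at -2.14 ± 0.31 (adjusted p = 0.0198). Tnfrsf1b passed without either scurfy mock array (adjusted p = 0.0494). The comparisons share the Treg mock arrays.

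The ligands came from a list of 18 TNF family ligands and the ICOS ligand, of which 14 were measured and passed the filter. Between GFP+ and GFP- starts, where 3.47% of all genes tested were called higher, 1 of the 14 rose and none fell, with a median of 0.21. It was Tnfsf9, which encodes the ligand of CD137. It read 170 and 78.9 in scurfy Foxp3 cells, 93.1 and 125 in scurfy mock, 36.7 and 48.4 in Treg mock, 33.1 and 19.7 in Tconv Foxp3, and 28.9 and 30.1 in Tconv mock cells. Both scurfy groups lay above all other arrays, and the difference was 1.18 ± 0.23 (SE; limma adjusted p = 0.0259). It was lost without Treg mock replicate 2 or any GFP- array, with adjusted p up to 0.129. Tnfsf4, the ligand of OX40, read 236 and 467 in Tconv Foxp3, against 19.5 and 67.5 in Tconv mock cells, a difference of 2.68 that did not pass (adjusted p = 0.238). Tnfsf13b (1.22, adjusted p = 0.222) and Tnfsf14 (-0.79, adjusted p = 0.286) had wide ranges of group means too and did not pass between starts. None of the 14 passed between scurfy Foxp3 and Tconv Foxp3 cells, where 2 had an unadjusted p under 0.05, as had 1938 of 11326 genes.

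Of 21 other TNF receptors listed, 20 were measured and 12 passed the filter. Cd40, a receptor of B cells, dendritic cells and some T cells, was the only gene called, higher in GFP+ starts by 1.15 ± 0.20 (SE; limma adjusted p = 0.0154) and in scurfy Foxp3 against Tconv Foxp3 cells by 1.52 ± 0.30 (adjusted p = 0.0418). Of all genes tested, 3.47% and 1.63% were called higher in these comparisons. Cd40 read 341 and 560 in scurfy Foxp3 cells, 128 and 142 in scurfy mock, 162 and 216 in Treg mock, 134 and 151 in Tconv Foxp3, and 64.6 and 51.8 in Tconv mock cells. The 2 scurfy Foxp3 arrays were highest in Cd40 and also highest in the summed B cell markers, and the 2 Tconv mock arrays were lowest in both. Of 8 listed myeloid and dendritic cell markers 7 were measured, of which 2 passed the filter. The 7 summed to 178 and 111 on the scurfy Foxp3 arrays, against 46.5 to 107 on the other 8. Fcgr1, which did not pass the filter, read 77.8 and 5.21 on the scurfy Foxp3 arrays. The part of B cells or of myeloid and dendritic cells in the result was not tested. Tnfrsf13c, a receptor of B cells, was at 0.75 between starts (adjusted p = 0.442) and Tnfrsf12a at 0.73 (adjusted p = 0.146). Leaving out any of the 4 GFP- arrays ended the first call (adjusted p up to 0.0858). The second ended without scurfy Foxp3 replicate 2, either Treg mock array or any GFP- array, with adjusted p up to 0.249. With all arrays, the first call ended with the mean of probe sets (0.91, adjusted p = 0.172) and held in the other 10 of 11 settings. The second held in 3 of 11, those with pseudocount 64, a filter at the 75th percentile or trend and robust options. It ended among others after quantile normalization (adjusted p = 0.0671), with the mean of probe sets (0.136) and with the replicate block (0.0593).

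The CD28 family, to which ICOS belongs, and its B7 ligands were measured with all 8 listed genes. Ctla4 and Cd86, 2 of the 8, were called higher in GFP+ than in GFP- starts and none lower, where 3.47% of all genes tested were called higher. The median of the list was 0.43. Ctla4, the inhibitory receptor of the family, read 5865 and 4330 in scurfy Foxp3 cells, 4592 and 4502 in scurfy mock, 3946 and 4865 in Treg mock, 1676 and 804 in Tconv Foxp3, and 3336 and 2031 in Tconv mock cells. All GFP+ arrays lay above all GFP- arrays, by 1.41 ± 0.26 on average (SE; limma adjusted p = 0.0206), and by 2.10 ± 0.40 between scurfy Foxp3 and Tconv Foxp3 cells (adjusted p = 0.036). With all arrays, the second of these calls ended at pseudocount 1 (adjusted p = 0.0724), without a filter (0.0695) and with array weights (0.102). Cd86, a B7 ligand of antigen-presenting cells, read 342 and 324 in scurfy Foxp3 cells, 21.9 and 32.4 in scurfy mock, 14.3 and 172 in Treg mock, 16.8 and 0.682 in Tconv Foxp3, and 1.26 and 6.22 in Tconv mock cells. High values thus lay on both scurfy Foxp3 arrays and 1 Treg mock array, and the other GFP+ arrays were near the GFP- arrays or little above them. Its difference was 2.28 ± 0.46 (adjusted p = 0.0281), and 3.90 ± 0.71 between scurfy Foxp3 and Tconv Foxp3 cells (adjusted p = 0.0311). All 4 GFP- arrays lay below their array medians for Cd86, so these sizes rest on the pseudocount: they were 1.28 and 2.46 at pseudocount 64, and 4.05 and 5.93 at pseudocount 1. Both calls ended at pseudocount 1 (adjusted p = 0.0571 and 0.0997) and without a filter (0.0672 and 0.0793), and the second with array weights (0.0564). The Treg mock array with 172 had a B cell marker sum of 536, and the other array had 52.0. The scurfy Foxp3 arrays were highest in the B cell sum. In the myeloid and dendritic cell sum, with 2 of 7 markers past the filter, they read 178 and 111, against 107 on a Tconv mock array. The part of these cells in the result was not tested. Cd80, a B7 ligand as well, was at 1.47 between starts (adjusted p = 0.0805) and the inhibitory receptor Btla at -1.07 (adjusted p = 0.39). Between scurfy Foxp3 and Tconv Foxp3 cells, leaving out any compared array ended either call (adjusted p up to 0.273). Between starts, the call of Ctla4 ended without scurfy Foxp3 replicate 1, Treg mock replicate 2, Tconv Foxp3 replicate 2 or Tconv mock replicate 2 (adjusted p up to 0.0862), and that of Cd86 without either scurfy Foxp3 array or any GFP- array (up to 0.13).

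Of the signalling genes, the TRAF and NF-kB list held 22 measured genes of 26, and 0 passed between GFP+ and GFP- starts. Of the 22, 5 had an unadjusted p under 0.05, as had 2471 of all 11326 genes tested, and the median was 0.24. The same list gave 0 between scurfy Foxp3 and Tconv Foxp3 cells, with 17 of 22 above 0 and a median of 0.61. Over all genes 5072 of 11326 were above 0, with a median of -0.07. Here 4 of the 22 had an unadjusted p under 0.05, as had 1938 of 11326 genes. Tnfaip3, an inhibitor of NF-kB, had the widest range of group means in the list and read 3974 and 1853 in scurfy Foxp3 cells, against 791 and 628 in Tconv Foxp3 cells (adjusted p = 0.177). Nfkbie was at 0.87 (adjusted p = 0.239) and Nfkb2 at -0.07 (adjusted p = 0.956) between starts. The PI3-kinase and ICOS response list had 11 measured genes of 12. Maf, a transcription factor known to act downstream of ICOS, was its only gene called. It read 6116 and 4747 in scurfy Foxp3 cells, 6994 and 5045 in scurfy mock, 5078 and 5137 in Treg mock, 1142 and 190 in Tconv Foxp3, and 5217 and 3427 in Tconv mock cells. Low values thus lay in the Tconv Foxp3 arrays, and Tconv mock overlapped with all 3 GFP+ groups. The differences were 1.93 ± 0.42 between starts (limma adjusted p = 0.0395) and 3.47 ± 0.66 between scurfy Foxp3 and Tconv Foxp3 cells (adjusted p = 0.0365). Of all genes tested, 3.47% and 1.63% were called higher in these comparisons. Between Tconv Foxp3 and Tconv mock cells Maf was at -3.12 (adjusted p = 0.164). The PI3-kinase subunit genes Pik3r1 (0.88, adjusted p = 0.138) and Pik3cd (0.22, adjusted p = 0.725) did not pass between starts. Between starts the call held only without scurfy mock replicate 2 or Tconv Foxp3 replicate 1, and the other 8 fits gave adjusted p up to 0.141 (1.31 without Tconv Foxp3 replicate 2). The call between scurfy Foxp3 and Tconv Foxp3 cells ended without either scurfy Foxp3 array, either Treg mock array or Tconv Foxp3 replicate 2 (2.22 without that array), with adjusted p up to 0.144. With all arrays, each call held in 7 of 11 settings. Both ended at pseudocount 1 (adjusted p = 0.072 and 0.0788), without a filter (0.0846 and 0.0875), with trend and robust options (0.0759 and 0.0725) and with array weights (0.0601 and 0.133). No gene of the 5 lists was called in any of the other 8 comparisons.

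**Figure D4:**
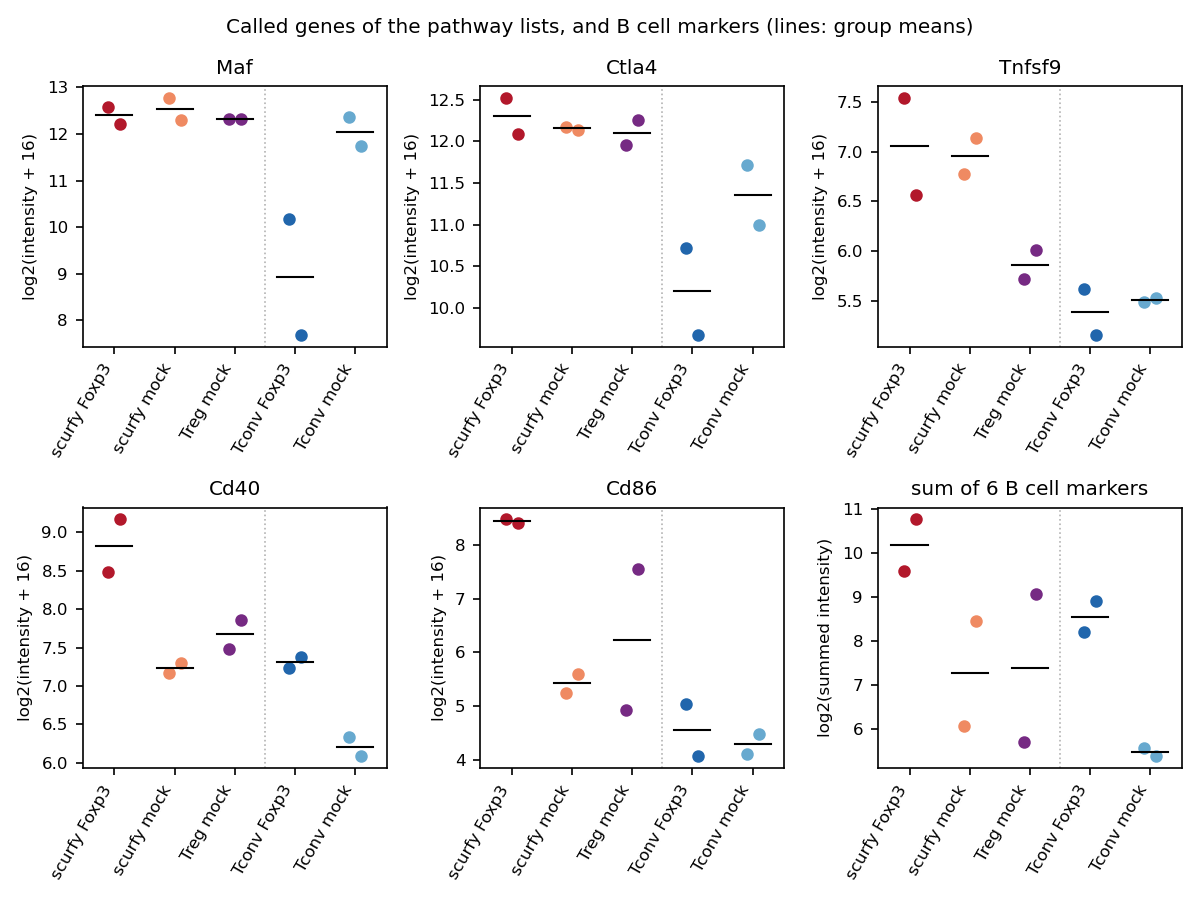
Log2(intensity + 16) of the 5 called genes of the pathway lists and log2 of the summed intensity of 6 B cell markers on the 10 arrays (points; horizontal lines are group means). Maf and Ctla4 are lowest in Tconv Foxp3 cells, and Cd40 and Cd86 are highest in the scurfy Foxp3 arrays, where the B cell sum is 774 and 1740.

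The members were also compared by their course over the 10 arrays, as a description, since all arrays share their groups and labelling. Tnfrsf8 and Tnfrsf9 had a Pearson correlation of 0.856, Tnfrsf9 and Icos 0.846, Tnfrsf8 and Icos 0.816, and Tnfrsf9 and Tnfrsf1b 0.737. Against Icos, Tnfrsf4 and Cd27 were at -0.11 and -0.10. Among the members, Tnfrsf4 was highest with Tnfrsf18 (0.339) and Cd27 with Tnfrsf1b (0.29). Tnfrsf18 was at 0.682 with Tnfrsf9 and 0.614 with Tnfrsf8, and Tnfrsf1b at 0.455 with Tnfrsf8. Among 11326 genes, those most like Icos were Klf10 (0.978), Ltb4r1 (0.96) and Pon3 (0.955). Most like Tnfrsf9 were Ctla4 (0.962), Arhgap5 (0.952) and Prdm1 (0.95), the gene of the transcription factor Blimp1. For Tnfrsf1b they were Ifngr1 (0.974), a chain of the interferon gamma receptor, Klrg1 (0.971) and Cdkn2b (0.952), and for Tnfrsf8 Sel1l (0.977), Il2rb (0.951) and Ccl5 (0.946). Cd27 ran closest to Ltb (0.955), Cnnm3 (0.941) and Ccr7 (0.933), a chemokine receptor of naive T cells. Tnfrsf18 ran closest to Platr30 (0.934), Sdf4 (0.913) and Mast4 (0.904), and Tnfrsf4 to Tuba8 (0.955), Gm13205 (0.93) and Pomgnt2 (0.905). Ctla4, 1 of the 21 genes so named, was thus also a called gene of the CD28 family list.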

How the data were processed

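The authors deposited 1 linear intensity for each probe set of each array, made with Affymetrix Expression Console, per the submitters' processing notes. How probes were summarised and scaled is not given in the sources used here. Biotinylated cDNA was prepared with the NuGEN FL-Ovation module, per the labels' protocols. Array medians differed and were left as deposited. The table held 45101 probe sets, of which 64 control probe sets were left out and 34945 others had 1 symbol in the platform annotation. The probe set with the highest mean stood for its gene. Intensities were taken as log2 after adding 16, and a gene entered the fit when 2 or more arrays exceeded their own median (11326 of 18193).

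Groups came from sample titles and descriptions. All 10 arrays were fitted together by lmFit and eBayes of limma 3.58.1 under R 4.3.3 (5 residual and 4.07 prior degrees of freedom, prior SD 0.343 on the log2 scale). p-values are two-sided and adjusted by Benjamini-Hochberg over all genes of a comparison, with calls at an adjusted p under 0.05. GFP+ against GFP- start is the mean of 3 groups minus the mean of 2. The other probe sets of a gene were fitted among all single-symbol probe sets. The number of arrays limits the precision, and no detection calls were used. The script was tested on simulated data.

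The members, the gene lists and the rule for named genes were chosen with earlier results of these data known. The rule named all members, each list gene called in any comparison and the 3 with the widest range of group means per list, and the 3 genes most correlated with each member. The alternatives tried changed the normalization (quantile, or arrays scaled to their 75th percentile), the pseudocount (1 or 64), the filter (none, or the 75th percentile), the probe sets (averaged, or fitted singly) and the model (trended and robust eBayes, array weights, only the groups compared, the replicate number as a block). Each array was also left out in turn; a lone remaining array was taken to vary like the other groups. Promoter windows and gene order came from RefSeq on GRCm38.p6.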

Additional observations from a re-analysis of the deposited data

How the results depend on the processing

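The number of members called depended on the setting in 5 comparisons. For GFP+ against GFP- starts, where 4 were called, pseudocount 1 and no filter each gave 1, the replicate block gave 2, and a common 75th percentile, the mean of probe sets, array weights and each probe set on its own gave 3. For scurfy Foxp3 against Tconv Foxp3 (2 called), pseudocount 1, no filter and array weights each gave 1, and quantile normalization, pseudocount 64 and trend and robust options gave 3, with Tnfrsf9 added. For Tconv Foxp3 against Treg mock (0 called), quantile normalization and eBayes with trend and robust options gave 2, and a common 75th percentile, the mean of probe sets, the compared groups alone and each probe set on its own gave 1. Treg mock against Tconv mock (0 called) gave 1 with trend and robust options, and Tconv Foxp3 against Tconv mock (0 called) gave 1 with array weights. With each array left out in turn, the count was 0 to 3 for GFP+ against GFP- starts, 0 to 2 for scurfy Foxp3 against Tconv Foxp3, and 0 to 1 for Tconv Foxp3 against Treg mock and for Treg mock against Tconv mock. Icos kept both of its calls under all 11 settings that use all arrays; Tnfrsf1b kept its call in 9 of 11, Tnfrsf8 in 8 of 11 for either comparison, and Tnfrsf9 in 5 of 11. Over all alternatives, adjusted p for GFP+ against GFP- starts ran from 0.000168 to 0.0715 for Icos, 0.00679 to 0.124 for Tnfrsf1b, 0.0322 to 0.18 for Tnfrsf8 and 0.00764 to 0.2 for Tnfrsf9. For scurfy Foxp3 against Tconv Foxp3 it ran from 0.000856 to 0.167 for Icos and 0.016 to 0.302 for Tnfrsf8.

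The 22 member differences with an unadjusted p under 0.05 kept their sign in all 462 alternative fits; 397 kept their side of the threshold, 49 were no longer past it and 16 passed it newly. The other 48 differences changed sign in 40 of 1008 fits, none larger than 0.51 in the reported fit, and none was called in any. The cause of these shifts was not tested. Over all genes, counts of calls under other settings ran from 315 to 817 for GFP+ against GFP- starts (530 reported; 102 to 771 without an array), 110 to 435 for scurfy Foxp3 against Tconv Foxp3 (256; 9 to 374), 35 to 222 for Treg mock against Tconv mock (127; 17 to 219), 1 to 107 for scurfy mock against Tconv mock (65; 10 to 234), 3 to 531 for Tconv Foxp3 against Tconv mock (10; 0 to 19), 0 to 5 for scurfy Foxp3 against scurfy mock (4; 0 to 48) and 0 to 1 for the difference of effects (0; 0 to 28). Against Treg mock they ran from 0 to 59 for scurfy mock (29; 4 to 69), 0 to 39 for scurfy Foxp3 (19; 0 to 38) and 37 to 138 for Tconv Foxp3 (77; 6 to 117). Whether the replicate numbers pair the arrays could not be settled. Between groups, same-numbered arrays deviated with correlations of -0.168 to 0.182, 2 of 10 over 0.1, and such weak values cannot exclude a pairing. Of the calls on members, the replicate block ended those of Tnfrsf8 (adjusted p = 0.0517) and Tnfrsf9 (0.0663) for GFP+ against GFP- starts. Values near the background, such as the lower probe sets of Tnfrsf1b and Tnfrsf9, Tnfrsf8 in Tconv Foxp3 cells and Cd86 in GFP- cells, rest on the pseudocount.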
